A study of Mus musculus with 13 samples.

Results

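Salivary ducts turn an isotonic primary fluid into dilute saliva by taking up sodium and chloride and secreting bicarbonate. Sodium enters duct cells through the epithelial sodium channel ENaC, built from the subunits encoded by Scnn1a, Scnn1b and Scnn1g, while Cftr, the chloride and bicarbonate channel mutated in cystic fibrosis, passes chloride beside it. The apical sodium-proton exchanger Slc9a3 (NHE3) and the chloride-bicarbonate exchanger Slc26a6 move acid and base. Prss8 (prostasin) is a membrane protease that activates ENaC, Nedd4l is the ubiquitin ligase that takes ENaC off the membrane, and Sgk1 is the steroid-induced kinase that restrains Nedd4l.

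These 9 genes were taken by symbol from 23364 genes measured by RNA-seq in submandibular glands of C57BL/6 mice. All 9 reached 1 FPKM (fragments scaled to gene length and to the reads of the sample) in at least 1 of the 13 samples, as did 14650 genes in all, which were tested together. The 6 time points were E14.5 with 3 samples and E16.5, E18.5, postnatal day 5 (P5), 4wk and 12wk with 2 samples each, from untreated animals. Glands of 3 animals were pooled for a sample at E14.5, and glands of 2 animals at E16.5 and E18.5. The 4wk and 12wk mice were male and the sex of the embryos and P5 pups was not ascertained, so sex and age cannot be told apart between stages. Following the study, the 7 embryonic samples, the 2 P5 samples and the 4 adult samples formed 3 stages, which means that ages within a stage were treated as replicates.

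Depth ran from 5817295 reads on genes in a 4wk sample to 48314173 at P5. The 10 genes with the highest FPKM took 48.1 to 61.1% of the summed FPKM in adults, 29.2 and 31.1% at P5, and less in every embryonic sample. On the deposited values the median log2 change of all genes was -0.25 from embryo to P5, -0.53 from P5 to adult and -0.75 from embryo to adult. After division by median-of-ratios factors of the samples, called rescaled FPKM here, these medians were -0.02, -0.04 and -0.05. Calls and directions of the 9 genes that differed after rescaling are therefore given on both scales. From embryo to adult, 5.58% of all tested genes were called higher and 38% lower as deposited, and 13.8% and 14.7% after rescaling, and the counts of markers below are to be read against these shares. Of the 7 duct markers, 5 were higher in adult than in embryonic samples (6 after rescaling), with summed levels of 47.3 to 343 FPKM in embryos, 448 to 503 at P5, 4400 to 6340 at 4wk and 13900 to 15500 at 12wk. Krt19 was the duct marker that was lower on either scale, and none of the 7 was at 0 in every sample of a time point. Mesenchyme markers moved the other way, with 4 of 5 lower in adults on either scale and sums of 1660 to 2590 FPKM in embryos, 1410 to 1550 at P5 and 251 to 465 in adults. Markers of the acinus were higher in adults for 4 of 7 genes as deposited and 6 after rescaling, and those of all epithelium were called for none of 4 on either scale. Of the 5 basal or myoepithelial markers, 1 was higher and 2 were lower as deposited, against 3 higher and none lower after rescaling. Endothelial markers were lower in adults for 3 of 3 genes as deposited and 1 after rescaling, and nerve markers for 3 of 3 and 2. None of the 4 immune markers was called as deposited, and 2 were higher after rescaling. All 4 skeletal muscle markers were lower on either scale, and the muscle sum was highest at E16.5 with 267 and 699 FPKM. The part of these marker changes in the levels below was not tested, and in whole glands fewer cells of a type and less RNA per cell cannot be told apart.

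The start regions are shown for 3 genes, which were picked by their changes in level. Sgk1 had the largest rise from P5 to adult, and Scnn1g and Scnn1b, neighbours 96.6 kilobases apart on the same strand of chromosome 7, both rose from embryo to adult, though by different amounts. The search covered 11 RefSeq (GRCm38.p6) windows from 250 bases before to 50 after a start site, for 6 of the 9 genes. Of these windows, 6 were for Sgk1. No window of Scnn1a, Prss8 or Nedd4l was searched, so the counts below say nothing about these 3 genes. The windows were searched on both strands for AGAACA, a single arm of the element that glucocorticoid and mineralocorticoid receptors bind, for the complete element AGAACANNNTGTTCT, which contains that arm at each end, for TGACG, an arm of the cAMP response element, and for the TATA box TATAAA. The motifs were chosen after the values were seen. Capitals mark the matches in the sequences, which are all read on the plus strand, and a window without capitals held none of the motifs.

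Sgk1, chr10:21993640-21993939: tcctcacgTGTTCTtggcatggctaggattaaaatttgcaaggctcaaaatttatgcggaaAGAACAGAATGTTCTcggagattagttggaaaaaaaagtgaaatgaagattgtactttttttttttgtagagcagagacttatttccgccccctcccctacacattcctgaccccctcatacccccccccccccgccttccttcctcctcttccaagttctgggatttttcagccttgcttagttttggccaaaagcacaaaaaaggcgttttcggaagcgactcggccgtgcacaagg
Sgk1, chr10:21994416-21994715: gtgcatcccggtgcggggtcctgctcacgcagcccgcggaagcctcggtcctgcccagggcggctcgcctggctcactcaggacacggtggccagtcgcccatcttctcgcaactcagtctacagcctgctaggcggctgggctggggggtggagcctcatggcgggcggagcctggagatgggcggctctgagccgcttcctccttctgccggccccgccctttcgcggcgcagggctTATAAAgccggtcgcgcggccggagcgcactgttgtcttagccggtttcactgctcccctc
Scnn1g, chr7:121734229-121734528: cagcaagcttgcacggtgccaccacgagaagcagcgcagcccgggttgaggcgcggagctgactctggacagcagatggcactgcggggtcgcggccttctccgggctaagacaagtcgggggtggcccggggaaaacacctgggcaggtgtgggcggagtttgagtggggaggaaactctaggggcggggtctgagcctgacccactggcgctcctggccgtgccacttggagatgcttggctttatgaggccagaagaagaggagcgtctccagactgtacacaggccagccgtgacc
Scnn1b, chr7:121864788-121865087: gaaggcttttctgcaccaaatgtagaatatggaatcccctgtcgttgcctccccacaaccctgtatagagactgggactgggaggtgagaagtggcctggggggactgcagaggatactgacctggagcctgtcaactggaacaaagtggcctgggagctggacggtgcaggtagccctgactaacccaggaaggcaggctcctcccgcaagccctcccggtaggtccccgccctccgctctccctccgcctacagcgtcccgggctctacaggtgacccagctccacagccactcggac

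The complete element lay in the Sgk1 window at 21993640, at positions 21993701 to 21993715, and began 189 bases before that window's own start site and 965 bases before the last annotated Sgk1 start site. Of the 32851 windows of all genes, 3 (0.00913%) held it. The single arm was far more common, with 19.0% of all windows, and was found in 3 of the 11 windows, all of Sgk1. The window of the last Sgk1 start site held TATAAA beginning 11 bases before the start, and 13.6% of all windows held it at any place. TGACG was present in 20.8% of all windows and in 1 of the 11, also of Sgk1. Neither ENaC window held any of these letters. The Scnn1b window had 10 CpG and the Scnn1g window 18, against a median of 7 over all windows, and the last Sgk1 window had 28. No binding was measured in these samples, so the matches describe the sequence alone.

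Scnn1a, which encodes the alpha subunit that ENaC needs to conduct, had FPKM of 0.430, 0.564 and 0.599 (E14.5), 1.66 and 3.75 (E16.5), 3.10 and 3.03 (E18.5), 10.1 and 10.7 (P5), 8.45 and 12.97 (4wk), and 20.2 and 11.9 (12wk). All P5 and adult samples were above all embryonic samples, while P5 and adult samples overlapped as deposited. Its mean rose 5.55-fold from embryo to P5, a log2 change of 2.15 ± 0.45 (SE) with an adjusted p of 0.0057 by limma. From P5 to adult it changed by 0.27 ± 0.49 (adjusted p = 0.67), with a 95% interval from -0.78 to 1.33. After rescaling all 4 adult samples lay above both P5 samples, and the change was 0.91 (adjusted p = 0.17), which was not called either. The order of its deposited means was 12wk, 4wk, P5, E18.5, E16.5 and E14.5, and only the steps from P5 to E18.5 and from E16.5 to E14.5 were free of overlap.

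Scnn1b, the beta subunit, had the largest log2 change of the 9 genes from embryo to adult. It had FPKM of 0.164, 0.513 and 0.421 (E14.5), 1.61 and 2.203 (E16.5), 2.73 and 2.15 (E18.5), 8.78 and 9.06 (P5), 25.4 and 40.9 (4wk), and 33.2 and 25.0 (12wk). In the first E14.5 sample this level stood for 9 reads. The 3 stages did not overlap, with the P5 samples above every embryonic sample and below every adult sample. The log2 change was 2.18 ± 0.40 from embryo to P5 (limma, adjusted p = 0.0029) and 1.67 ± 0.43 from P5 to adult (adjusted p = 0.0075). From embryo to adult the mean rose 22.2-fold, and the log2 change of 3.84 ± 0.31 had an adjusted p of 1.4e-07. The 4wk and 12wk samples overlapped, with a log2 difference of -0.16 ± 0.24.

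Scnn1g, the gamma subunit, had the highest FPKM of the 3 subunits in every E14.5 sample and the lowest in every sample from E16.5 on. Its levels in FPKM were 0.595, 0.639 and 0.757 (E14.5), 1.19 and 1.76 (E16.5), 1.73 and 1.78 (E18.5), 3.99 and 3.81 (P5), 6.32 and 11.1 (4wk), and 7.42 and 5.37 (12wk). As for Scnn1b, the 3 stages did not overlap. The rise from embryo to P5 passed the test at a log2 change of 1.19 ± 0.28 (limma, adjusted p = 0.0086), whereas the further change to adult, 0.76 ± 0.30, did not reach the threshold of 1. After rescaling it was 1.37 ± 0.30 (adjusted p = 0.0055) and passed.

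Cftr was the gene with the largest change between young and mature adults. It had FPKM of 0.782, 1.27 and 1.07 (E14.5), 2.33 and 4.01 (E16.5), 4.73 and 3.93 (E18.5), 5.55 and 6.56 (P5), 7.55 and 7.49 (4wk), and 32.3 and 27.3 (12wk). Apart from E16.5 and E18.5, which overlapped, every time point lay above the one before it. Between E14.5 and E18.5 the log2 change was 1.39 ± 0.19 (limma, adjusted p = 0.00025), and between 4wk and 12wk it was 1.85 ± 0.21 (adjusted p = 0.00027), a 3.96-fold rise of the mean. From P5 to adult the change of 1.2 ± 0.60 missed the threshold (adjusted p = 0.12), as the 4 adult samples spread from 7.49 to 32.3 FPKM. Without either 4wk sample it was 1.51 and passed, with adjusted p of 0.057 and 0.062, and after rescaling it was 1.83 (adjusted p = 0.041). The duct marker Egf was also higher at 12wk than at 4wk (log2 change of 1.59), 5 of the 7 duct markers were not called, and the part of duct cell numbers in the rise of Cftr was not tested. In the annotation used for gene positions, 129 of 7765 exonic bases of Cftr overlap the antisense gene Gm15592, and the counting was not stated to use strand.

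**Figure D1:**
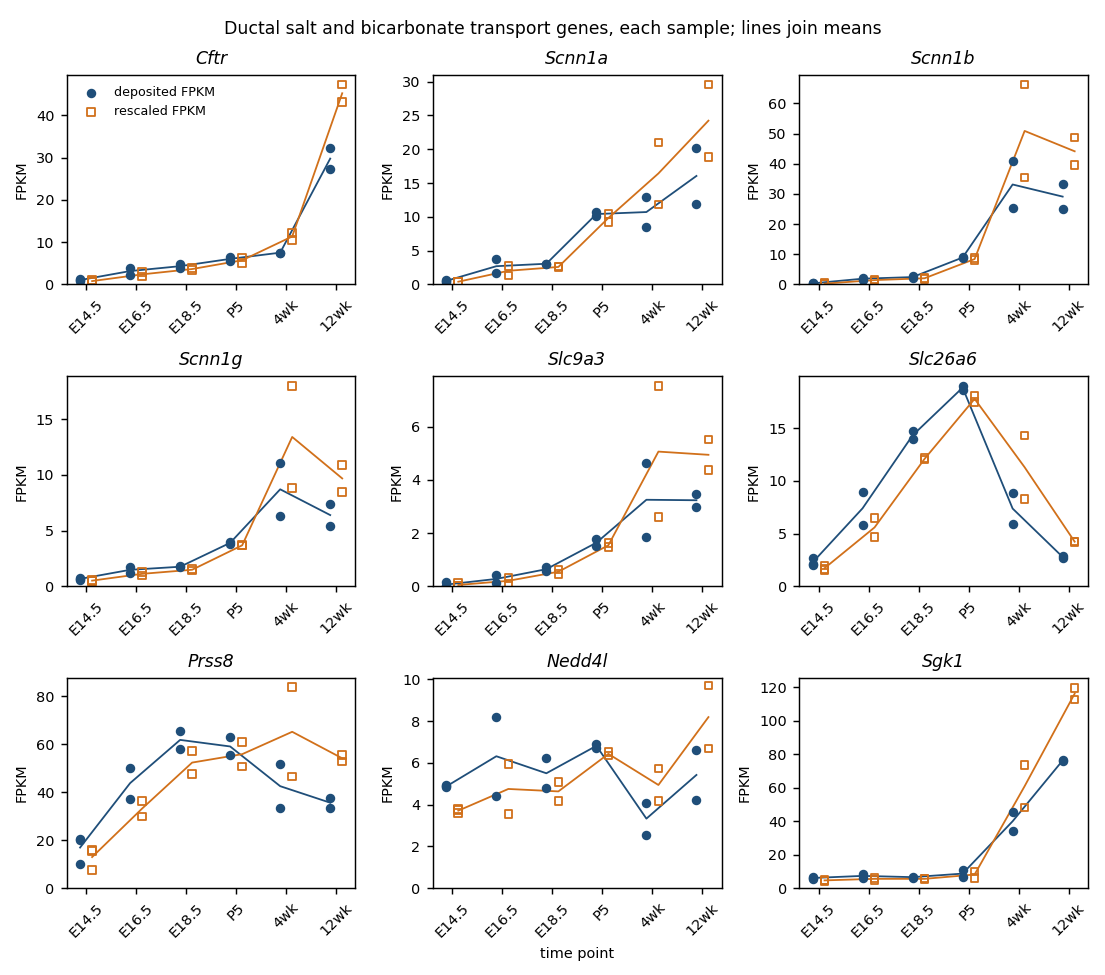
FPKM of the 9 genes at each time point, with filled circles for deposited and open squares for rescaled values of each sample and lines through the means of each time point. ENaC subunits, Slc9a3, Cftr and Sgk1 were highest in adults on either scale, Slc26a6 was highest at P5, and Prss8 and Nedd4l changed order with the scaling.

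Slc9a3 had the lowest mean of the 9 genes at every time point but 12wk, and no read fell on it in the first E14.5 sample, where 3 reads would have been 0.0625 FPKM. The other E14.5 samples had 11 reads and 1 read (0.174 and 0.0150 FPKM). The later levels in FPKM were 0.122 and 0.431 (E16.5), 0.556 and 0.730 (E18.5), 1.76 and 1.51 (P5), 1.86 and 4.64 (4wk), and 2.98 and 3.49 (12wk). Embryonic, P5 and adult samples formed 3 ranges without overlap. The log2 change was 1.06 ± 0.26 from embryo to P5 (limma, adjusted p = 0.01) and 0.65 ± 0.28 from P5 to adult (adjusted p = 0.072), the latter under the threshold of 1 on the deposited scale and 1.17 ± 0.30 (adjusted p = 0.011) after rescaling. At these low levels the pseudocount of 1 FPKM shrinks the changes, and the ratio of the adult to the embryonic mean was 11.2 where the fitted log2 change of 1.71 corresponds to 3.26-fold.

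Slc26a6 took another course, with a peak at P5. Its levels in FPKM were 2.64, 2.01 and 2.12 (E14.5), 5.81 and 8.98 (E16.5), 14.7 and 13.9 (E18.5), 19.0 and 18.6 (P5), 5.91 and 8.84 (4wk), and 2.87 and 2.69 (12wk). The 12wk samples were above the 3 E14.5 samples, closely as deposited and with means of 4.23 and 1.71 after rescaling. From E14.5 to E18.5 its log2 change was 2.24 ± 0.19 (limma, adjusted p = 9.7e-06), the largest of the 9 genes on the log2(FPKM + 1) scale, while its ratio of means, 6.35, was below those of Slc9a3 (10.2) and Scnn1b (6.68). It rose by 1.59 ± 0.62 from embryo to P5 (adjusted p = 0.07) and fell from P5 to adult, with a log2 change of -1.83 ± 0.67 (adjusted p = 0.039), and fell again from 4wk to 12wk, at -1.13 ± 0.21 (adjusted p = 0.006). From embryo to adult its change was -0.24 as deposited and 0.53 after rescaling, called on neither scale. The calls after E18.5 depended on single samples. The rise to P5 lost its call without the second or the third E14.5 sample (1.40 and 1.41, adjusted p = 0.1 for both), without the first or the second P5 sample (1.57 and 1.603, adjusted p = 0.27 for both), and with the replicate number as a block (1.41, adjusted p = 0.13). The fall from P5 to adult lost its call without the first or the second P5 sample (-1.82 and -1.845, adjusted p = 0.16 and 0.14) and after rescaling (-1.25, adjusted p = 0.2). The fall between 4wk and 12wk was -1.19 after rescaling, with an adjusted p of 0.0042, but -0.87 (adjusted p = 0.017) and under the threshold of size without the second 4wk sample.

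Prss8 was the most abundant of the 9 genes through P5. It had FPKM of 10.1, 20.04 and 20.5 (E14.5), 37.3 and 50.2 (E16.5), 58.1 and 65.5 (E18.5), 55.3 and 62.8 (P5), 33.3 and 51.7 (4wk), and 37.7 and 33.4 (12wk). At 4wk its mean of 42.5 FPKM was still the highest of the 9 genes, with Sgk1 next at 39.9. Every E14.5 sample of Prss8 was below every later sample. The rise from E14.5 to E18.5 was 1.87 ± 0.28 on the log2 scale (limma, adjusted p = 0.00041), and no other comparison passed on the deposited values. Between P5 and adult the sign depended on the scaling, at -0.61 ± 0.57 as deposited and 0.06 ± 0.60 rescaled, and from embryo to adult the rescaled change of 1.195 ± 0.44 (adjusted p = 0.029) passed where the deposited one, 0.28 ± 0.41, did not. Of its 1852 exonic bases, 108 overlap Myst1 on the opposite strand.

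Nedd4l was called in no comparison, on either scale. It had FPKM of 4.82, 4.91 and 4.87 (E14.5), 4.42 and 8.21 (E16.5), 6.21 and 4.78 (E18.5), 6.92 and 6.71 (P5), 4.09 and 2.56 (4wk), and 6.61 and 4.22 (12wk). As deposited, all neighbouring time points in the order of its means overlapped, except that the 4wk samples were below the 3 E14.5 samples. After rescaling 12wk had the highest mean, 8.19 FPKM. There the 12wk samples lay above P5, P5 above 4wk, and E18.5 above E14.5, each without overlap. The 12wk samples were above the 4wk samples on either scale. From embryo to adult the log2 change was -0.30 ± 0.20 as deposited, with an interval from -0.72 to 0.13, and 0.49 ± 0.18 after rescaling, so its direction was set by the scaling.

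Sgk1 kept between 5.66 and 10.9 FPKM in every sample through P5 and then rose. Its levels in FPKM were 5.66, 5.88 and 6.50 (E14.5), 6.05 and 8.49 (E16.5), 6.87 and 6.17 (E18.5), 10.9 and 6.39 (P5), 34.4 and 45.5 (4wk), and 76.8 and 75.8 (12wk). The lowest adult sample was above the highest of all earlier samples. The log2 change from embryo to P5 was 0.33 ± 0.27 with an interval from -0.26 to 0.92, and turned to -0.02 without the first P5 sample. From P5 to adult it was 2.58 ± 0.30 (limma, adjusted p = 4.3e-05), a 6.73-fold rise of the mean. The 12wk samples were above the 4wk samples by 0.93 ± 0.22 (adjusted p = 0.021), just under the threshold of size, and the change was 1.13 and called without the second 4wk sample. At 12wk Sgk1 was the most abundant of the 9 genes with a mean of 76.3 FPKM, followed by Prss8 at 35.6, Cftr at 29.8, Scnn1b at 29.1, Scnn1a at 16.0, Scnn1g at 6.40, Nedd4l at 5.42, Slc9a3 at 3.24 and Slc26a6 at 2.78.

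Calls needed a log2 change of 1 or more in either direction together with an adjusted p below 0.1. The 5 comparisons share samples, so their counts are given side by side and not as independent results. From E14.5 to E18.5, 5 of the 9 genes were higher (Cftr, Scnn1a, Scnn1b, Slc26a6 and Prss8) where 6.27% of all tested genes were called higher. The same 5 genes were called after rescaling, against a background of 7.03%. From embryo to P5, 5 were higher (Scnn1a, Scnn1b, Scnn1g, Slc9a3 and Slc26a6) against 4.14% of all genes, and the same 5 against 5.57% after rescaling. Without the first P5 sample this count dropped to 2, Scnn1a and Scnn1b, in a fit where the lone P5 sample was assumed to vary like the others. From P5 to adult, Scnn1b and Sgk1 were higher and Slc26a6 was lower, where 2.31% of all genes were called higher and 20.8% lower.

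After rescaling, the comparison of adult with P5 gave 5 genes higher (Cftr, Scnn1b, Scnn1g, Slc9a3 and Sgk1) and none lower, against 6.07% of all genes higher and 8.56% lower. From embryo to adult, 6 of the 9 were higher on the deposited values (Cftr, the 3 ENaC subunits, Slc9a3 and Sgk1), against 5.58% of all genes called higher and 38% called lower. Prss8 joined them after rescaling to make 7, against 13.8% higher and 14.7% lower. The 6 deposited log2 changes were 3.84 for Scnn1b, 2.91 for Sgk1, 2.42 for Scnn1a, 2.31 for Cftr, 1.95 for Scnn1g and 1.71 for Slc9a3, and adults were above embryos in every sample for each of these 6 genes. Between 4wk and 12wk, Cftr was higher and Slc26a6 lower, with 2.68% of all genes called higher and 2.48% lower, and 3.69% and 3.26% after rescaling, where the same pair was called. For the other 7 genes the log2 differences between 4wk and 12wk lay between -0.36 for Scnn1g and 0.93 for Sgk1.

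**Figure D2:**
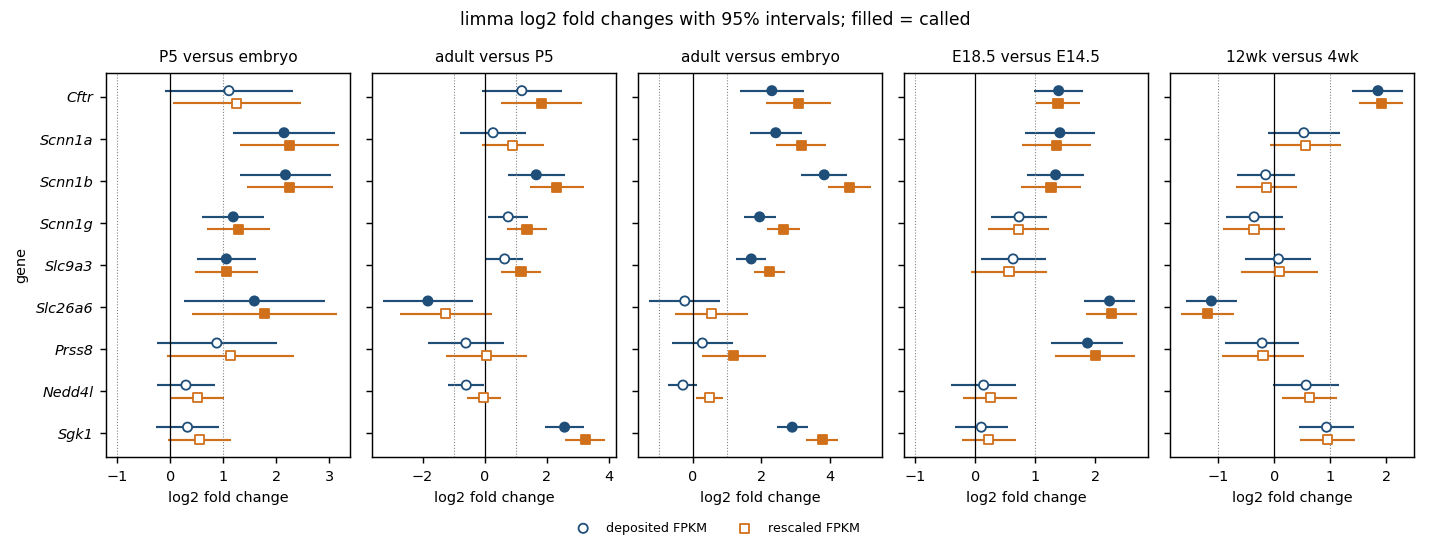
Log2 fold changes of the 9 genes in the 5 comparisons with 95% intervals from limma, as circles for deposited and squares for rescaled FPKM, filled where the gene was called, with dotted lines at a log2 change of 1 in either direction. Most changes from embryo to adult lie right of the threshold, Slc26a6 moves left after P5, and the intervals of Nedd4l lie between the dotted lines for adult versus embryo.

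Ratios between genes of the same sample do not depend on how samples were scaled to each other. Of 14 such ratios, 13 could be computed, since Slc9a3 was at 0 in 1 sample, and 10 differed between the 4 adult and 7 embryonic samples at an adjusted p below 0.05 in a two-sided exact permutation test. With 330 ways to choose the adult samples, the smallest p the test can give is 0.0061 (0.0088 adjusted), which was reached by every ratio whose groups did not overlap.

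The makeup of ENaC transcripts shifted toward the beta subunit. Scnn1b relative to Scnn1a was between 0.381 and 0.971 in embryos, 0.846 and 0.869 (P5), 3.00 and 3.15 (4wk), and 1.65 and 2.10 (12wk). All 4 adult samples were above all earlier samples, and the ratio was 3.39-fold higher in adults than in embryos (exact p = 0.0061). Scnn1g relative to Scnn1b lay between 1.25 and 3.63 at E14.5 and was 0.215 and 0.223 at 12wk, and its adult level was 0.209 times the embryonic one (exact p = 0.0061). Scnn1g relative to Scnn1a did not pass (0.709 times, exact p = 0.22), and the groups overlapped. The E14.5 ratios rest on 9 to 60 reads for each subunit.

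The ratio of the kinase to the ligase also rose, where Sgk1 was called higher in adults and Nedd4l was called in no comparison. Sgk1 relative to Nedd4l was between 1.03 and 1.37 in embryos, 0.953 and 1.57 (P5), 8.41 and 17.8 (4wk), and 11.6 and 17.9 (12wk), an 11-fold difference between adult and embryo with no overlap (exact p = 0.0061). Cftr relative to Slc26a6 was between 0.282 and 0.633 in embryos, 0.291 and 0.352 (P5), 0.848 and 1.28 (4wk), and 10.2 and 11.2 (12wk). The adult samples were 8.42-fold above the embryonic ones (exact p = 0.0061), with the 12wk pair well above the 4wk pair.

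**Figure D3:**
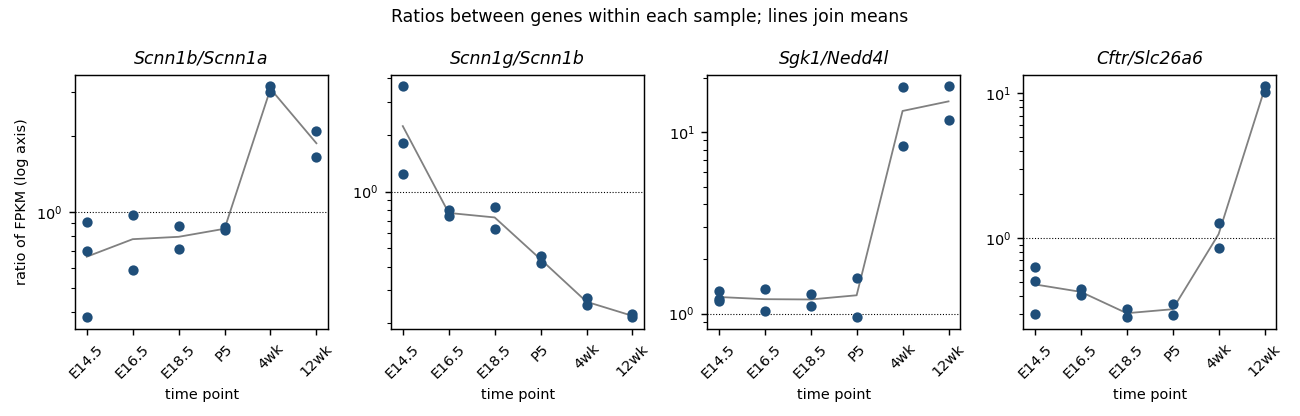
Ratios of FPKM within each sample on log axes at the 6 time points, with a point for each sample, lines through the means and a dotted line at 1. Scnn1b/Scnn1a and Sgk1/Nedd4l step up between P5 and 4wk, Scnn1g/Scnn1b falls over the whole course, and Cftr/Slc26a6 reaches 10.2 and 11.2 at 12wk.

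Each gene was also related to Cdh1, the adhesion molecule of epithelial cells. Its mean was 94.3 FPKM in embryos, 94.95 at P5 and 51.1 in adults, a log2 change of -0.82 from embryo to adult as deposited and 0.11 after rescaling, neither of which reached the threshold of size. Relative to Cdh1, Scnn1b was 56.8-fold higher in adult than in embryonic samples, Scnn1a 16.8-fold, Sgk1 15.2-fold, Cftr 12.6-fold and Scnn1g 11.9-fold, each without overlap (exact p = 0.0061 for each). Prss8 relative to Cdh1 was 2.18-fold higher (exact p = 0.012, adjusted p = 0.016), with 3 of 4 adult samples above all embryonic samples, and this difference was no longer past the threshold without E14.5 (log2 0.66, adjusted p = 0.073). Slc26a6 and Nedd4l relative to Cdh1 overlapped between the stages, at 1.5-fold (exact p = 0.36) and 1.38-fold (exact p = 0.18). The size of these folds depended on the marker, since Cdh1 was the epithelial marker with the largest fall (-0.37 for Epcam, -0.41 for Krt8 and 0.15 for Krt18 as deposited). Relative to Krt18 the folds were 28.7 for Scnn1b, 8.47 for Scnn1a, 7.67 for Sgk1, 6.4 for Cftr and 6.0 for Scnn1g, still without overlap (exact p = 0.0061 for each). Prss8 was 1.63-fold higher relative to Krt8 (adjusted p = 0.0079 by the exact test) but was not past the threshold relative to Epcam (1.58-fold, adjusted p = 0.063) or Krt18 (1.11-fold, adjusted p = 0.46), and Slc26a6 and Nedd4l were lower relative to Krt18, at 0.76 and 0.698 times. These other markers were tried after the data were seen. Slc9a3 relative to Cdh1 was between 0 and 0.00748 in embryos, 0.0153 and 0.0194 at P5, and between 0.0323 and 0.0811 in adults.

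**Figure D4:**
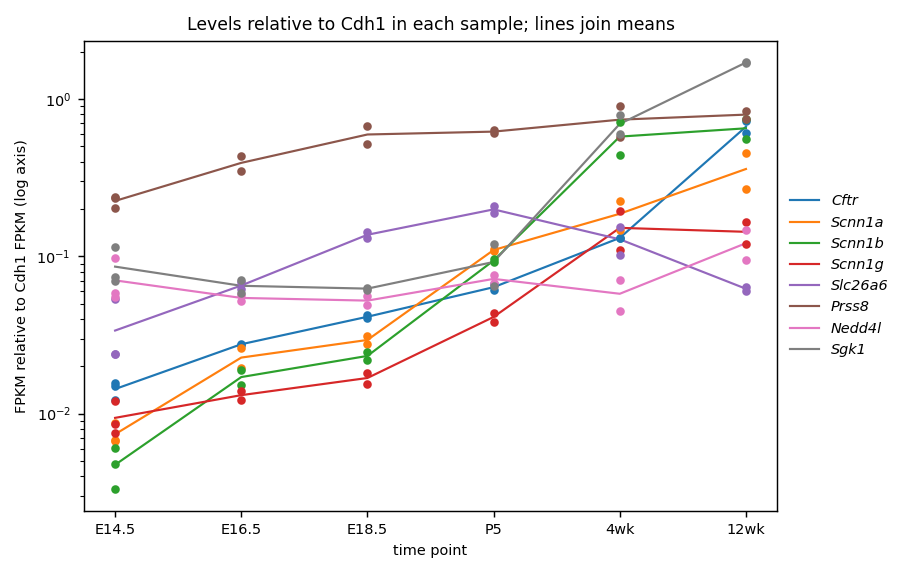
FPKM relative to that of Cdh1 in the same sample, on a log axis, for the 8 genes without a value of 0, with a point for each sample and lines through the means. Scnn1b, Scnn1a, Scnn1g and Cftr climb from E14.5 to 4wk, Sgk1 climbs after P5, Slc26a6 turns down after P5, and Nedd4l keeps between 0.0448 and 0.148.

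Other genes of the same transport were read from lists, by their counts in the comparison of adult with embryonic samples. Among 18 tested genes for other duct ion transport, 10 were higher and none lower on the deposited values, where 5.58% of all genes were higher and 38% lower, and 12 were higher and none lower after rescaling, where 13.8% were higher and 14.7% lower. Their median log2 change was 1.19 where the median of all genes was -0.75. Among the 3 largest changes were those of Atp6v0d2, a subunit of the proton pump, and Bsnd (barttin), a membrane protein of ion-transporting epithelia. Atp6v0d2 had a log2 change of 4.32 ± 0.35, from a mean of 0.903 FPKM in embryos to 33.4 in adults. Bsnd had a change of 2.89 ± 0.20, from 0.264 to 8.33 FPKM, and was at 0 in the 3 E14.5 samples. Both had an adjusted p of 1.5e-07 or less by limma. Atp6v1b1, another pump subunit of the list, did not rise with Atp6v0d2. Its log2 change from embryo to adult was -0.89 and was not called. From P5 to adult it was called lower as deposited (-2.32) but not after rescaling (-1.70). Atp6v1b1 is named after its values were seen.

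Among 8 proteases and protease inhibitors around ENaC, 1 was higher and 2 were lower in adults, where 5.58% of all genes were called higher and 38% lower. After rescaling 4 were higher and 2 lower, against 13.8% and 14.7% of all genes. A difference of the list from these shares was not tested. Klk1, a kallikrein protease of granular ducts, had the largest change, 9.75 ± 0.99 on the log2 scale (limma, adjusted p = 9.9e-07). Its 5 lowest samples were those of E14.5 and E16.5 (1.71 to 3.203 FPKM), and the later levels were 57.3 and 102 (E18.5), 524 and 555 (P5), 16222 and 14472 (4wk) and 3866 and 3185 (12wk), the last step being a called log2 change of -2.13. Klk1 belongs to a family of near-identical genes, and the exclusion of reads with several mapping places makes its level uncertain. Serpine2, a secreted inhibitor of serine proteases, fell in adults with a log2 change of -3.29 ± 0.20 (adjusted p = 1.4e-08), and Tmprss4, a membrane serine protease that activates ENaC, with -1.34 ± 0.28 (adjusted p = 0.00067).

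Among 15 tested genes for aldosterone and kinase signalling, 1 was higher and 4 were lower, and after rescaling 3 were higher and 1 lower. Of all genes 5.58% were higher and 38% lower as deposited, and 13.8% and 14.7% after rescaling. Whether the list differed from these shares was not tested. Usp2, a deubiquitinase with an aldosterone-induced form that acts on ENaC, rose by 1.39 ± 0.29 (limma, adjusted p = 0.00056) and was highest at 12wk with 9.46 and 8.40 FPKM. Nedd4, the ubiquitin ligase most closely related to Nedd4l, fell with a log2 change of -2.08 ± 0.17 (adjusted p = 1.5e-07), or -1.14 after rescaling. The falls of Wnk1 (-1.22) and Oxsr1 (-1.20), kinases that regulate chloride transport, were -0.35 for each after rescaling and no longer called. The receptor for aldosterone, Nr3c2, was at a mean of 1.07 FPKM in embryos and 2.54 in adults and was called only after rescaling (0.76 as deposited, 1.37 rescaled). Hsd11b2, the enzyme that inactivates glucocorticoids beside this receptor, was at 1.18 and 0.131 FPKM (-0.95, adjusted p = 1.7e-05 by limma). Its change was under the threshold of size on either scale, but the pseudocount of 1 FPKM shrinks changes at such low levels. The glucocorticoid receptor Nr3c1 was at 13.7 and 7.34 FPKM (-0.82, and 0.04 rescaled). These 3 genes are named after their values were seen.

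Among 10 scaffolds and regulators of Cftr and the exchangers, none was higher and 2 were lower, and after rescaling 2 were higher and 1 lower. Of all genes 5.58% were higher and 38% lower as deposited, and 13.8% and 14.7% after rescaling. A difference of these 10 genes from all genes was not tested. Adora2b, the adenosine receptor that raises cAMP, fell from 12.6, 12.0 and 9.0 FPKM at E14.5 to at most 0.323 in adults, a log2 change of -2.83 ± 0.28 (limma, adjusted p = 8.2e-07). Prkaca, the catalytic subunit of the cAMP-dependent kinase that opens Cftr, was called lower on the deposited values (-1.40) but not after rescaling (-0.48).

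Pearson's r of log2(FPKM + 1) over the 13 samples, which share the same ages and depths, described how alike the courses were. The ENaC subunits and Slc9a3 correlated with each other at 0.935 to 0.99. Cftr correlated with the 3 subunits at 0.832 to 0.908, Sgk1 with them at 0.769 to 0.885, and Slc26a6 with Prss8 at 0.831. Nedd4l correlated with the others between -0.329 and 0.295, Slc26a6 with Cftr at 0.088 and with Sgk1 at -0.246, and Sgk1 with Prss8 at 0.114. Among all tested genes, the 3 most like Scnn1b were Ptk2b (0.993), Fam189a2 (0.992) and Scnn1g (0.99). Those most like Scnn1g were Scnn1b, Ptk2b and Ascl3 (0.983 for the last), and those most like Slc9a3 were Ptk2b (0.98), Mgl2 and Gnmt.

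The other courses had other neighbours. Scnn1a was closest to Entpd3 (0.981), Mavs and Itpr2, and Cftr to Ficd (0.978), Pfkfb2 and Lmod1. Sgk1 was closest to Def6 (0.989), with C130026I21Rik among its 3 nearest. Slc26a6 was closest to Otud3 (0.975), Mndal and Ramp1, Prss8 to Krt18 (0.975), Cldn8 and Dennd2d, and Nedd4l to Srcin1 (0.96), Mllt4 and Rnf31.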

How the data were processed

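RNA of mouse submandibular glands was sequenced as 50 bp single-end reads. The authors mapped the reads to mm9 with TopHat2 2.0.13 and Bowtie2 2.2.6, counted them on UCSC genes with featureCounts, leaving out reads with several places or genes, and deposited FPKM derived with DESeq2 1.10.1. The described normalization between samples is not visible in the values: median-of-ratios factors over 13039 genes were 1.148 to 1.38 in embryos, 1.031 and 1.089 at P5, and 0.617 to 0.714 in adults. Division by these factors gave rescaled FPKM. Reads per gene were recovered from the steps of the FPKM, and the values of the 9 genes came out whole in all 13 samples, with a largest gap of 0.003 reads. A read on 1 kilobase was worth 0.0207 to 0.1719 FPKM, and limits of 3 reads cover counting error only.

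The 14650 genes that reached 1 FPKM in any sample were fitted as log2(FPKM + 1) with limma 3.58.1 in R 4.3.3 (eBayes with trend) over all 13 samples, by stage or by time point, with Benjamini-Hochberg adjustment over these genes and the thresholds of the study, a log2 change of at least 1 and an adjusted p below 0.1. Ratios used exact permutation tests in Python 3.11.15 with scipy 1.17.1, adjusted over the 13 computed. Nothing states that samples share animals or batches, and p-values measure the spread between these samples. Positions and exons are from GENCODE on mm9, promoter windows from RefSeq on GRCm38.p6.

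The 9 genes and the lists were chosen with earlier results of these data known. All 9 genes are named, with the 3 most changed genes per direction of each list called in adult versus embryo, and the 3 genes most correlated with each of the 9. Some genes that this rule or the lists name are not reported here. Alternatives were other pseudocounts, filters, scaling, variance model, threshold, samples in the fit, the replicate number as a block, and each sample left out. Protein sequences were not analysed here.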

Additional observations from a re-analysis of the deposited data

How the results depend on the processing

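Of the counts of genes called, those of adult versus embryo (6), E18.5 versus E14.5 (5) and 12wk versus 4wk (2) were the same whichever sample was left out, but without the second 4wk sample Sgk1 (1.128) took the place of Slc26a6 (-0.87) in the last. The count for P5 versus embryo ranged from 2 to 5 and that for adult versus P5 from 2 to 4, and the count of ratios from 10 to 11. Where 1 sample of a group remained, it was assumed to vary like the other groups. After rescaling, adult versus P5 gave 5 genes and the protease list 6. A pseudocount of 0.1 gave 8 genes of the aldosterone list and added Scnn1g (1.29) and Slc9a3 (2.33) to E18.5 versus E14.5. With 12wk alone or 4wk alone as adult, 0 ratios passed, where 2 samples against 7 cannot give an exact p below 0.056. With no filter or an adjusted p below 0.05, Slc26a6 lost its P5 call (adjusted p of 0.11 and 0.07), and with only the compared groups fitted Cftr gained one (1.11, adjusted p = 0.088). Over all genes, a pseudocount of 0.1 raised the calls from 3385 to 5320 in adult versus P5, from 1777 to 2840 in E18.5 versus E14.5 and from 755 to 1658 in 12wk versus 4wk, while rescaling lowered them to 2137 in adult versus P5 and from 6385 to 4167 in adult versus embryo. They fell from 1798 to 870 and 1049 in P5 versus embryo without the first or the second P5 sample, and rose to 1472 in 12wk versus 4wk without the second 4wk sample.

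Several changes that were not called turned direction, and the cause was not tested. After rescaling these were Prss8 in adult versus P5 (0.064), and Slc26a6 (0.532) and Nedd4l (0.488) in adult versus embryo. Leaving out each sample in turn gave Sgk1 in P5 versus embryo from -0.016 (without the first P5 sample) to 0.669, and Nedd4l in E18.5 versus E14.5 from -0.021 (without the first E18.5 sample) to 0.297. In 12wk versus 4wk it gave Slc9a3 from -0.417 (without the first 4wk sample) to 0.562, with -0.014 without the second 12wk sample. There Scnn1b ranged from -0.49 to 0.179, Scnn1g from -0.725 to 0.001 and Prss8 from -0.529 to 0.092, each highest without the second 4wk sample, and Scnn1b was 0.042 without the second 12wk sample. Slc26a6 relative to Cdh1 was -0.096 without E14.5, and Nedd4l relative to Cdh1 -0.07 with 4wk alone as adult. With Krt18 in place of Cdh1, an alternative chosen after seeing the data, they were -0.396 and -0.518, and the ratio of Prss8 was no longer past the threshold with Krt18 (0.144) or Epcam (0.663). The remaining alternatives changed no other direction.

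Deviations of samples from their group means had a mean correlation of -0.016 over 30 pairs with the same replicate number. It was 0.012 over 40 pairs with different numbers. In a group of 2 samples the deviations mirror each other by construction. The 2 means are therefore not independent, and the check cannot decide whether the numbers pair the samples. With the replicate number as a block, 4 genes were called in P5 versus embryo, without Slc26a6 (1.41, adjusted p = 0.13), and 3, 6, 5 and 2 in the other comparisons, as without it.

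No sample stood apart from its group by Dixon's test in the 18 groups examined, the 7 embryonic and the 4 adult samples of each of the 9 genes. These groups mix ages, and differences between ages widen the range that the test divides by. A sample that deviates from its own time point could therefore be missed, and P5 was not examined. Depth limits Slc9a3 most, which had 0 to 11 reads in the E14.5 samples, and the 4wk samples, where 3 reads on Slc9a3 correspond to 0.207 and 0.151 FPKM.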
